A study of Homo sapiens with 6 samples.

Results

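The genes described here are 10 members of the NRF2 pathway: the transcription factor gene NFE2L2, which encodes NRF2, its inhibitor KEAP1, and 8 genes of glutathione synthesis and antioxidant defense, GCLC, GCLM, GSR, GSTP1, NQO1, HMOX1, TXNRD1 and SRXN1. They were picked as known pathway members, with earlier results of these data known, and were found by symbol among the 27942 genes of the deposited table, and each symbol matched 1 row. RNA came from the human colorectal carcinoma line HCT116, an established line with wild-type p53 and mutated CTNNB1, kept at 60-70% confluency in RPMI medium with bovine serum. The treated cells (OXA) received 0.5 µM oxaliplatin for 24 h, labelled as the IC50, and the untreated cells (NT) received no drug. Each group has 3 libraries, numbered 1 to 3 in the sample labels. The labels do not say whether the libraries came from separate cultures, so p-values measure the spread between these libraries, which may be technical. All results hold for 1 cell line, 1 dose and 1 time, and a change in mRNA per cell cannot be told apart from a change in the share of cells that express a gene.

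NRF2 is a transcription factor that is held at a low level by KEAP1, an adaptor that hands it to a CUL3 ubiquitin ligase for degradation. Oxidants and electrophiles modify cysteines of KEAP1, NRF2 then accumulates, and with small MAF proteins it binds antioxidant response elements in the control regions of its target genes. The targets make glutathione, recycle it and thioredoxin with NADPH, and detoxify quinones and heme. Much of this control acts on the NRF2 protein, which RNA-seq does not measure. Oxaliplatin is a platinum drug that forms adducts with DNA and, like other platinum compounds, can be bound by glutathione.

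The antioxidant response element core was searched in the promoters, because it is the letter pattern through which NRF2 acts. The pattern TGACNNNGC, on either strand, was found in the 300-base RefSeq promoter windows (GRCh38.p14, 250 bases before the start site) of 4 of the 8 members with an entry, GCLM, GSTP1, KEAP1 and TXNRD1, and in 16.1% of all 27305 genes with an entry. From 1000 bases upstream to 50 bases downstream of the start, read from the same genome build, it was found in 6 of the 8, GCLC and NQO1 being added, against 37.4% of all genes. HMOX1 and GSR have no entry and were not searched. KEAP1, NFE2L2 and TXNRD1 have 2 windows each, which raises their chance of a match. The 5 stretches below show the match of 1 site per gene in capitals, with 30 bases on each side, 5′ to 3′ on the strand of the gene. For TXNRD1 the position is counted from a start at 104287032, inside the gene. Its matches near the start at 104215779, at -99 and -8, are not shown. The stretches are shown beside the comparison described further on. There NQO1 and TXNRD1, which match the pattern with different letters, lay on different sides of zero. So did NQO1 and GSTP1, which match it with the same letters. None of these genes passed the test there without a block. The sign of TXNRD1 turned without OXA library 3 and that of GSTP1 without NT library 1. A link between letters and sign was not tested.
NQO1, chr16:69726977-69727045, minus strand, match at -455 from the start: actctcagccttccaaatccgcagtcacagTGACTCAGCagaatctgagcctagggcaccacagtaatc
GSTP1, chr11:67583716-67583784, plus strand, match at -66: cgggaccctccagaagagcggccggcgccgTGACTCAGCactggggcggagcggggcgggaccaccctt
GCLM, chr1:93909426-93909494, minus strand, match at -34: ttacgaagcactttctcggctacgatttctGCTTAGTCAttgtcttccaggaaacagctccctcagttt
KEAP1, chr19:10502764-10502832, minus strand, match at -31: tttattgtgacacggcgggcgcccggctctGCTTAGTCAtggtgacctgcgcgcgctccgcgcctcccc
TXNRD1, chr12:104286900-104286968, plus strand, match at -102: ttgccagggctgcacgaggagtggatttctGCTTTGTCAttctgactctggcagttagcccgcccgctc
The capitals of NQO1 and GSTP1 are the same 9 letters, TGACTCAGC, and overlap a match of the AP-1 pattern TGANTCA. Those of GCLM and of the KEAP1 site shown are also the same 9 letters, here the pattern on the opposite strand. The other KEAP1 match, TGACACGGC at -54, has different letters. A match is a description of the sequence and was not tested for binding.

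Library totals lay between 32979521 and 40967880 counts, and each member was counted at least 629 times in every library, so counting error was small beside the spread between libraries. Markers of colon epithelium were present, with 7 of 8 past the filter on low counts and CDX1 at 0 in all libraries, and their summed level was 1982 to 2668 CPM (counts scaled by library size) in NT and 2818 to 3161 in OXA. The markers in that sum did not move alike, since the raw counts of KRT8 were 27026 to 46147 in NT and 45913 to 58081 in OXA, while those of CDH1 were 3874 to 4254 in NT and 3282 to 3505 in OXA. Summed markers of fibroblasts, immune cells and endothelium stayed at or below 8.27 CPM in every library, and the fibroblast genes DCN and LUM were listed at 0 in all 6. As a check of the treatment, the p53 targets CDKN1A and MDM2 were 7.60-fold and 4.66-fold higher in OXA (both edgeR adjusted p = 0.000445).

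In the comparison of OXA with NT, none of the 10 genes passed the test, an adjusted p under 0.05 in the quasi-likelihood fit of edgeR, with the Benjamini-Hochberg correction taken over 13727 genes, where 5.07% of all genes passed, 2.78% as higher and 2.29% as lower. With a fold over 1.5 asked for as well, 3.41% of all genes passed. At an unadjusted p under 0.05, 1 of the 10 was higher (HMOX1) and 0 lower, against 21.7% of all genes. DESeq2 and limma-voom also called 0 of the 10, where they called 9.24% and 4.84% of all genes. HMOX1 lay just over the threshold by DESeq2 (adjusted p = 0.0506) and further from it by limma-voom (adjusted p = 0.133). The groups overlapped in all 10 genes, whereas they did not overlap in 28.9% of all genes, 14.5% with OXA above NT and 14.4% with OXA below. By sign, 8 of the 10 were higher and 2 lower, and the median log2 fold change was 0.16, beside 0.023 over all genes tested. In all 3 library numbers OXA was above NT for 6 of the 10 and below for GCLC and NQO1, where 33.7% of all genes were above and 27.6% below in all 3, 61.3% in all. Libraries of the same number deviated from their group means in the same way, with correlations between 0.26 and 0.48 over the genes tested. With the library number as a block in the fit, 2 of the 10 were higher (HMOX1 and SRXN1) and 1 lower (NQO1), 3 in all, where 23.0% of all genes passed. That share is near the background and is no result about the 10 genes as a set. With the block and pair 1, 2 or 3 left out, 41.5%, 11.8% and 22.3% of all genes passed. Without a block, 0 of the 10 passed with DESeq2 size factors (4.95% of all genes), library totals alone (6.27%) or no filter (3.50%). The same count held without NT library 1 (8.60% of all genes), 2 (2.16%) or 3 (1.33%) and without OXA library 1 (0.611%), 2 (0.908%) or 3 (1.22%). All values below are TMM-normalized counts unless another unit is named, and fold changes are OXA over NT.

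**Figure D1:**
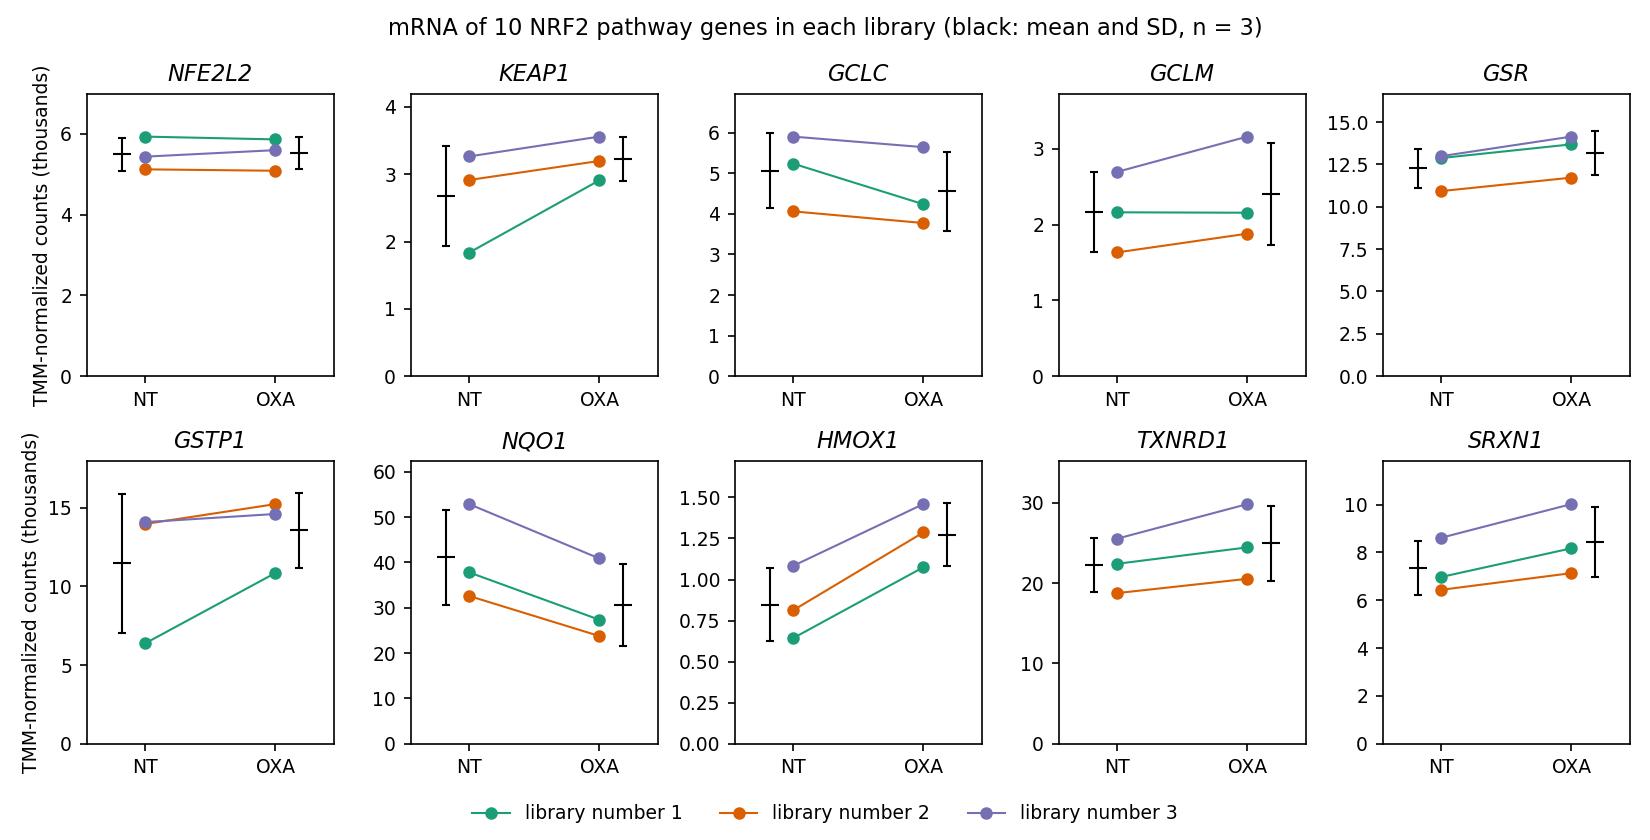
TMM-normalized counts (x1000, axes from 0) of the 10 genes in the NT and OXA libraries, with lines joining libraries of the same number and black marks for mean and SD (n = 3). All 3 lines fall for NQO1, from 32583-52849 in NT to 23751-40863 in OXA, all 3 rise for HMOX1, and those of NFE2L2 are nearly flat.

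NFE2L2 (ENSG00000116044, chromosome 2 of GRCh38 from 177218667 to 177392756, minus strand, 5 exons in its canonical transcript) encodes NRF2 itself. It had 5934, 5123 and 5438 normalized counts in NT libraries 1 to 3 and 5865, 5088 and 5599 in OXA libraries 1 to 3. The 3 OXA values lay inside or next to the range of the NT values, and each OXA library was within a few percent of the NT library of its number. The estimated log2 ratio was 0.0050 (standard error, SE, 0.096, adjusted p = 0.984 by edgeR), with a 95% confidence interval from -0.22 to 0.23, that is, from 0.860-fold to 1.17-fold. With the block the interval was -0.11 to 0.12. The difference is thus bounded well inside 1.5-fold, and its sign turned under several alternatives.

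KEAP1 (ENSG00000079999, chromosome 19 from 10486125 to 10503558, minus strand, 6 exons), the inhibitor of NRF2, had 1836, 2915 and 3265 normalized counts in NT and 2909, 3198 and 3560 in OXA. NT library 1 was far below the other 5 libraries, which overlapped. The log2 ratio of 0.27 (SE 0.20, adjusted p = 0.496 by edgeR) fell to 0.061 without NT library 1. The folds within numbers 1, 2 and 3 were 1.58, 1.10 and 1.09. With the block, the edgeR adjusted p was 0.110.

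Both subunits of glutamate-cysteine ligase, which makes the first and rate-limiting step of glutathione synthesis, stayed without a call. GCLC (ENSG00000001084, chromosome 6 from 53497341 to 53616970, minus strand, 16 exons), the catalytic subunit, had 5237, 4061 and 5903 normalized counts in NT and 4238, 3774 and 5644 in OXA. Every OXA library lay below the NT library of its number, at 0.809, 0.929 and 0.956 of it, but the groups overlapped widely (log2 fold change -0.15 with SE 0.18, adjusted p = 0.686 by edgeR; with the block 0.126). GCLM (ENSG00000023909, chromosome 1 from 93885199 to 93909456, minus strand, 7 exons), the modifier subunit, had 2163, 1634 and 2697 in NT and 2157, 1881 and 3162 in OXA. It went up in numbers 2 and 3 and was level in number 1 (log2 fold change 0.15 with SE 0.23, adjusted p = 0.768 by edgeR; with the block 0.171). Its sign turned without NT library 2 and without OXA library 3.

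GSR (ENSG00000104687, chromosome 8 from 30678066 to 30727846, minus strand, 13 exons) encodes glutathione reductase, which returns oxidized glutathione to its reduced form with NADPH. It had 12872, 10922 and 12984 normalized counts in NT and 13680, 11715 and 14137 in OXA. The difference was small and alike in the 3 numbers, with folds of 1.06, 1.07 and 1.09 (log2 fold change 0.10 with SE 0.11, adjusted p = 0.645 by edgeR; with the block 0.147). GSTP1 (ENSG00000084207, chromosome 11 from 67583742 to 67586656, plus strand, 7 exons), the glutathione S-transferase known for conjugating electrophilic drugs, had 6378, 13968 and 14087 in NT and 10848, 15231 and 14603 in OXA. Both libraries numbered 1 were low, NT library 1 most of all, and the fold within a number ran from 1.70 in libraries 1 to 1.04 in libraries 3. Its log2 ratio of 0.24 (SE 0.29, adjusted p = 0.690 by edgeR; with the block 0.160) became -0.049 without NT library 1.

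NQO1 (ENSG00000181019, chromosome 16 from 69706996 to 69726668, minus strand, 6 exons) encodes the quinone reductase that is the most widely used readout of NRF2. It had 37787, 32583 and 52849 normalized counts in NT and 27346, 23751 and 40863 in OXA. OXA library 3 lay above NT libraries 1 and 2, so the groups overlapped, yet within each number OXA was lower by nearly the same factor, at 0.724, 0.729 and 0.773 of NT. The comparison without a block did not pass (mean 41073 ± 10525 in NT and 30653 ± 9023 in OXA, SD, n = 3, log2 fold change -0.42 with SE 0.24, adjusted p = 0.365 by edgeR). With the block, the log2 fold change was -0.43 with a standard error of 0.048 (edgeR adjusted p = 0.00498, 95% confidence interval -0.55 to -0.31). The antisense gene NQO1-AS1 lies within NQO1, and without a stated strand setting its reads cannot be told apart from those of NQO1. NQO1 also passed with the block when any 1 of the 3 pairs was left out, with an edgeR adjusted p of at most 0.0143. Its log2 fold change then lay between -0.47 and -0.41. Such a fit leaves 1 residual degree of freedom, so its p rests on a spread pooled over genes more than on that of NQO1.

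HMOX1 (ENSG00000100292, chromosome 22 from 35380361 to 35394214, plus strand, 5 exons) encodes heme oxygenase 1, which breaks heme down to biliverdin, iron and carbon monoxide. It had 643, 813 and 1083 normalized counts in NT and 1074, 1287 and 1459 in OXA. Only the highest NT library and the lowest OXA library overlapped, by 1083 against 1074. Within a number, OXA was 1.67-fold, 1.58-fold and 1.35-fold higher. Without a block the log2 fold change was 0.59 (standard error 0.20, unadjusted p = 0.0204 and adjusted p = 0.143 by edgeR, 95% confidence interval 0.12 to 1.06). With the block it was 0.61 (SE 0.085, adjusted p = 0.00838 by edgeR). HMOX1 passed as well when any 1 pair was left out, at 0.54 to 0.69, with an edgeR adjusted p of at most 0.0135. The p of those fits has the same limit as for NQO1.

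NQO1 and HMOX1 thus lay on opposite sides of zero. In their ratio within a library, a scaling factor shared by all genes cancels. A GC trend that differs between libraries does not, the canonical transcripts having 57.7% GC for HMOX1 and 43.8% for NQO1. The ratio was 1.70, 2.49 and 2.05 HMOX1 counts per 100 NQO1 counts in NT and 3.93, 5.42 and 3.57 in OXA. Every OXA library was above every NT library, with a mean of 2.08 ± 0.397 in NT and 4.31 ± 0.979 in OXA (SD, n = 3). The ratio was chosen after the values were seen, from the members with the highest and the lowest fold change, so the separation is a description and was not tested.

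TXNRD1 (ENSG00000198431, chromosome 12 from 104215779 to 104350307, plus strand, 17 exons) encodes the cytosolic thioredoxin reductase, a selenoprotein. It had 22404, 18754 and 25533 normalized counts in NT and 24445, 20528 and 29834 in OXA. OXA was higher in each number, by 1.09-fold, 1.09-fold and 1.17-fold, with wide overlap between the groups (log2 fold change 0.17 with SE 0.16, adjusted p = 0.615 by edgeR; with the block 0.0622). SRXN1 (ENSG00000271303, chromosome 20 from 646615 to 653200, minus strand, 2 exons) encodes sulfiredoxin, which reactivates overoxidized peroxiredoxins. It had 6974, 6437 and 8616 in NT and 8173, 7135 and 10024 in OXA. The folds within numbers were 1.17, 1.11 and 1.16, and the groups overlapped (log2 fold change 0.20 with SE 0.16, adjusted p = 0.512 by edgeR). With the block SRXN1 passed at a fold of 1.15 (log2 fold change 0.20 with SE 0.048, adjusted p = 0.0347 by edgeR), but it did so in only 1 of the 3 fits that left out a pair, the adjusted p by edgeR reaching 0.442 in the others.

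**Figure D2:**
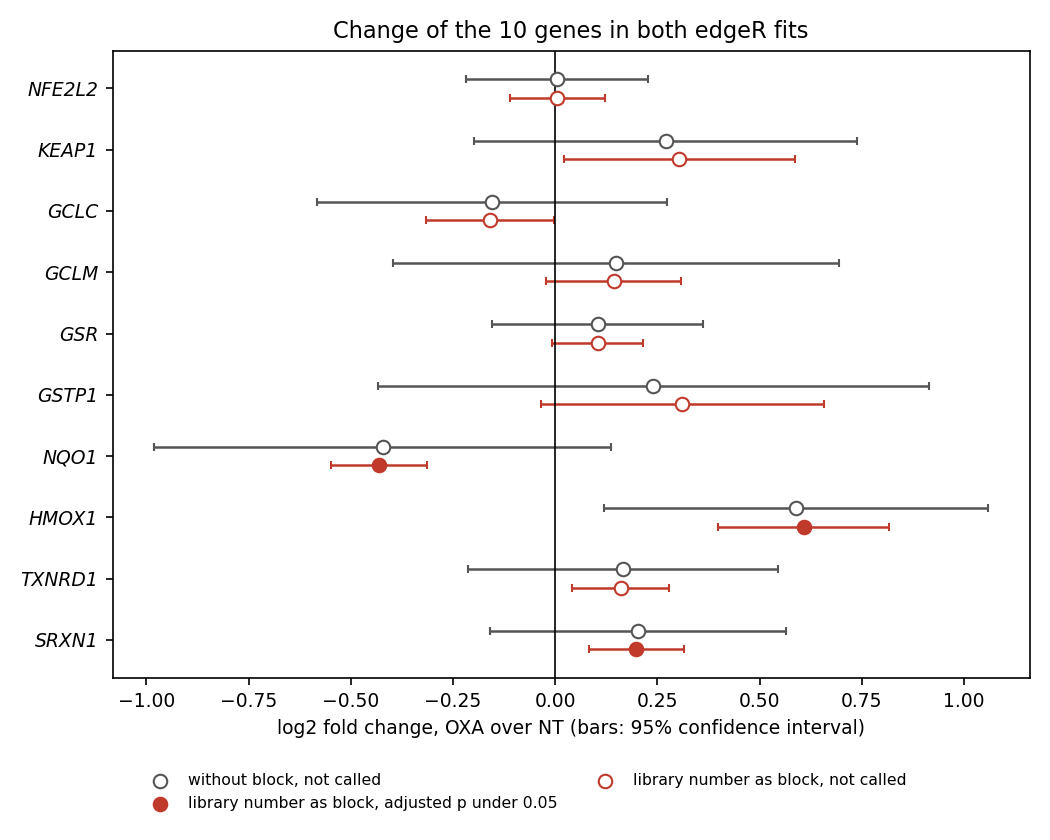
Log2 fold change (OXA over NT, x axis) of the 10 genes with 95% confidence intervals as bars, in the edgeR fit without a block (grey) and with the library number as block (red), filled where the adjusted p is under 0.05. The estimates are nearly the same in both fits, while the interval of NQO1 narrows from -0.98 to 0.14 without the block to -0.55 to -0.31 with it.

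The 10 genes also varied among the libraries within a group, and many of them did so alike. In GCLC, GCLM, GSR, NQO1, TXNRD1 and SRXN1, library 2 was the lowest and library 3 the highest in NT and again in OXA, 6 of 10 genes, where 5.62% of all genes tested had this pattern. This order was picked from the values of the same 10 genes, so the count is a description and was not tested. In 9 of the 10 genes, GSTP1 being the exception, the libraries stood in the same order in both groups, against 45.3% of all genes. NQO1, for example, deviated from its NT mean by -0.09, -0.30 and 0.39 on the log2 scale in libraries 1 to 3 and from its OXA mean by -0.13, -0.33 and 0.45. The count of 9 is a description as well and was not tested. Many of the 10 genes vary together, and the share over all genes includes genes with low counts. KEAP1, GSTP1 and HMOX1 had another pattern, with library 1 the lowest in both groups, at -0.50, -0.76 and -0.36 in NT. These 3 genes have canonical transcripts of 60.2%, 60.1% and 57.7% GC, above the median of 48.8% over genes tested, while 6 of the other 7 lie below it, between 37.3% and 46.7%, and SRXN1 has 51.7%. Over 13675 genes, the deviation of NT library 1 went down with transcript GC content (Spearman correlation -0.77) and that of NT library 2 went up (0.71). The correlation was 0.47 in NT library 3, -0.57 in OXA library 1, 0.64 in OXA library 2 and -0.17 in OXA library 3, so the sign was shared within numbers 1 and 2 but not within number 3. With trends on GC content and transcript length removed from each library beside the block, a setting chosen after seeing the data, 45.5% of all genes passed, and so did 6 of the 10 genes higher (HMOX1, TXNRD1, GCLM, SRXN1, GSR and KEAP1) and NQO1 lower. The log2 fold change of HMOX1 was then 0.42 and that of NQO1 -0.39. Those of the other GC-rich members became smaller, from 0.31 with the block alone to 0.017 for GSTP1 and from 0.30 to 0.12 for KEAP1, while that of GCLM went from 0.14 to 0.24.

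**Figure D3:**
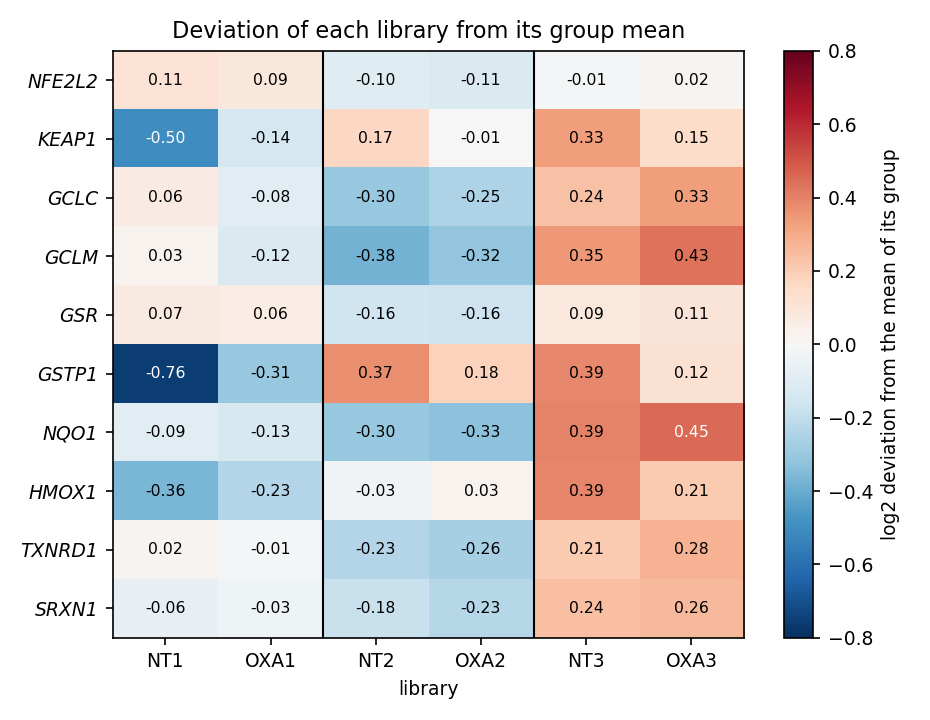
Log2 deviation of each library (columns, ordered by library number) from the mean of its own group for the 10 genes (rows), red above and blue below. Both libraries numbered 3 lie above their group mean for every gene but NFE2L2, and the deepest blue, -0.76, is GSTP1 in NT library 1.

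Levels between genes were compared as CPM per kilobase of canonical transcript. NQO1 (453 ± 116, SD, n = 3) and GSTP1 (430 ± 166) were the highest in NT and overlapped, both near the 99th percentile of genes tested. TXNRD1 (160.1 ± 24.4), GSR (112 ± 10.6), SRXN1 (80.7 ± 12.5) and NFE2L2 (62.5 ± 4.64) followed in ranges that did not overlap from each gene to the next. GCLC (37.2 ± 6.85) and KEAP1 (29.0 ± 8.07) overlapped, as did HMOX1 (15.1 ± 3.97) and GCLM (12.3 ± 3.03) at the low end. In OXA, GSTP1 (509 ± 88.9) had the higher mean and NQO1 (338 ± 99.5) the lower, in ranges that still overlapped, and HMOX1 (22.8 ± 3.45) stood clear of GCLM (13.7 ± 3.84). The 2 subunits of glutamate-cysteine ligase thus differed in level per length, with GCLC above GCLM in every library.

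Around these genes, 93 further genes of NRF2 control, glutathione, thioredoxin, NADPH, heme and detoxification were examined in 7 lists, of which 84 rows of the table could be tested. Without a block, 1 of these 84 was higher and 4 were lower, where 2.78% of all genes passed as higher and 2.29% as lower. The counts are small and were not tested against those shares. The genes named from them are single genes, not a result about the lists. The median log2 fold change was 0.043, beside 0.023 over all genes. With the block 20 of the 84 were higher and 9 lower, where 12.1% of all genes passed as higher and 10.9% as lower. Those counts were not tested against the shares either. AKR1B10, an aldo-keto reductase that reduces aldehydes and a known NRF2 target, went from 10.2, 7.27 and 15.5 normalized counts in NT to 94.1, 74.1 and 107.8 in OXA (log2 fold change 3.04 with SE 0.32, adjusted p = 0.00451 by edgeR) and passed in all 6 fits that left out 1 library. It is among the least abundant genes of the lists. NQO1, another known target, had the opposite sign and passed only with the block.

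Among the 13 genes of NRF2 control, BACH2, a repressor that competes with NRF2 for its sites, was lower, with 183, 205 and 236 normalized counts in NT and 119, 116 and 135 in OXA (log2 fold change -0.75 with SE 0.17, adjusted p = 0.0474 by edgeR). The other 12 did not pass, including the 2 most abundant, SQSTM1, an adaptor that sequesters KEAP1 (log2 fold change 0.39, edgeR adjusted p = 0.404, with the block 0.0379), and NFE2L1, the relative of NRF2 that controls proteasome genes (log2 fold change 0.056, edgeR adjusted p = 0.809). The level of CUL3, the scaffold of the ligase that ubiquitinates NRF2, was 6120 ± 833 in NT and 6100.4 ± 363 in OXA (SD, n = 3, log2 fold change -0.0045, edgeR adjusted p = 0.989).

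Of 10 rows tested for cysteine and glutathione supply, 1 was lower. This was GGCT, gamma-glutamylcyclotransferase, an enzyme of glutathione breakdown, with 2173, 1878 and 1912 normalized counts in NT and 1558, 1364 and 1418 in OXA (log2 fold change -0.46 with SE 0.10, adjusted p = 0.0484 by edgeR). Glutathione synthetase GSS (log2 fold change 0.37, edgeR adjusted p = 0.111, with the block 0.0139) and the cystine transporter subunit SLC3A2 (log2 fold change 0.15, edgeR adjusted p = 0.611) did not pass. SLC7A11, the other subunit of that transporter, named after its values were seen, had 2505, 1939 and 3984 normalized counts in NT libraries 1 to 3, beside 1380, 1293 and 3496 under OXA. Its groups overlapped (log2 fold change -0.45, adjusted p = 0.591 by edgeR), and with the block it was lower (log2 fold change -0.54, adjusted p = 0.033 by edgeR). Of 18 genes that use glutathione 0 passed by edgeR, against 2 at an unadjusted p under 0.05, where 21.7% of all genes were. With the block 3 were higher and 1 lower, against 12.1% and 10.9% of all genes. Among the most abundant, GLO1, glyoxalase 1, was at -0.24 on the log2 scale (adjusted p = 0.269 by edgeR, with the block 0.0308) and GPX4, which reduces lipid peroxides, at 0.073 (adjusted p = 0.882 by edgeR).

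In the thioredoxin system, TXNRD3, a testis-enriched reductase related to TXNRD1, was the 1 of 10 that was lower, with 820, 674 and 781 normalized counts in NT and 513, 469 and 554 in OXA (log2 fold change -0.57 with SE 0.13, adjusted p = 0.0472 by edgeR). The peroxiredoxin genes PRDX1 (log2 fold change 0.21, edgeR adjusted p = 0.427, with the block 0.0410) and PRDX3 (log2 fold change 0.051, edgeR adjusted p = 0.875) did not pass. Of 7 NADPH genes, IDH2, the mitochondrial isocitrate dehydrogenase, was lower, with 1655, 2203 and 1986 normalized counts in NT and 1244, 1317 and 1285 in OXA (log2 fold change -0.60 with SE 0.12, adjusted p = 0.0355 by edgeR). TKT (log2 fold change 0.32, edgeR adjusted p = 0.455) and PGD (log2 fold change 0.0096, edgeR adjusted p = 0.962) of the pentose phosphate pathway did not.

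Of the 9 heme and iron genes 0 passed without a block by edgeR, against 3 higher at an unadjusted p under 0.05, where 21.7% of all genes were in either direction. With the block 4 were higher, against 12.1% of all genes. The ferritin subunits FTH1 (log2 fold change 0.26, edgeR adjusted p = 0.281, with the block 0.0259) and FTL (log2 fold change 0.080, edgeR adjusted p = 0.821) were the most abundant, and FTH1, FTL and PRDX1 have processed pseudogenes with which the counting may share reads. The drug exporters ABCC1 (log2 fold change 0.36, edgeR adjusted p = 0.214, with the block 0.0264) and ABCC2 (log2 fold change -0.26, edgeR adjusted p = 0.282, with the block 0.0274) had opposite signs. BACH2, GGCT, TXNRD3 and IDH2 each kept an adjusted p under 0.05 in 1 of the 6 fits that left out a library, the fit without NT library 1, and had adjusted p-values by edgeR as high as 0.195 in the others.

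**Figure D4:**
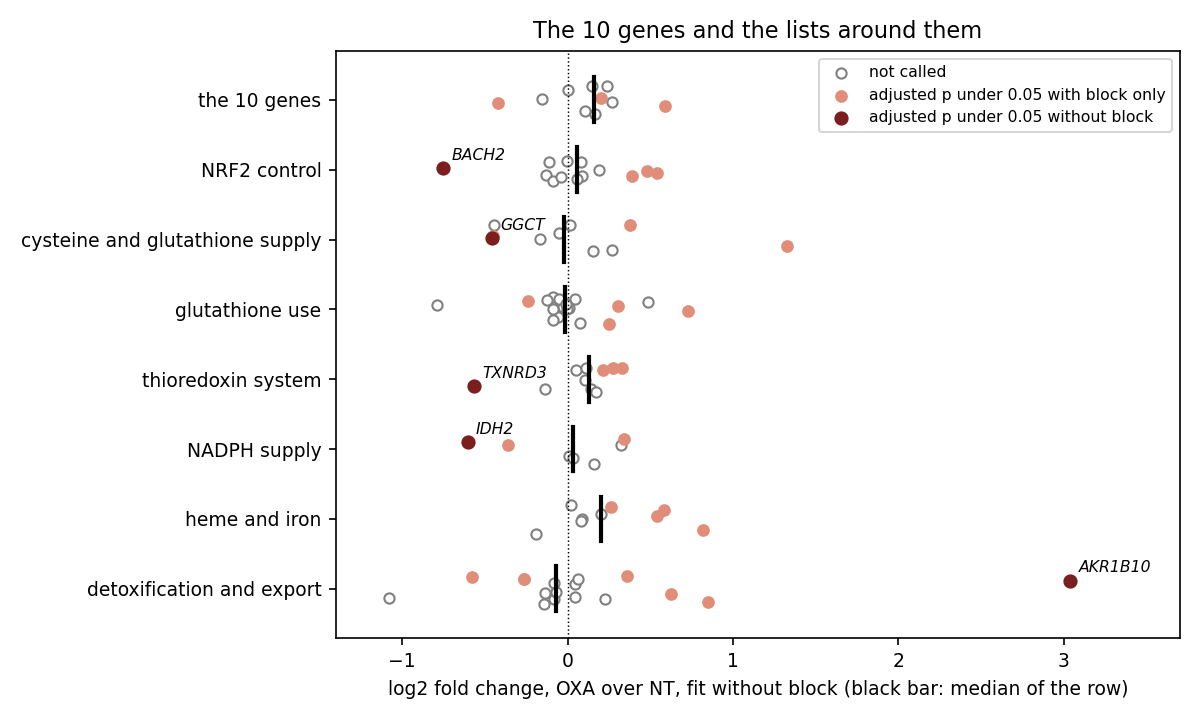
Log2 fold change (OXA over NT, fit without a block, x axis) of each tested gene in the set of 10 genes and in the 7 lists (rows), dark where the adjusted p is under 0.05 without a block, light red where it is so only with the block, and black bars for medians. AKR1B10 stands alone at 3.04, and the 4 other named genes lie between -0.75 and -0.46.

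The genes whose levels followed NFE2L2 most closely over the 6 libraries were ABCC4 (Pearson's r 0.93) and GSK3B (0.87), out of 93 candidates, the 84 tested list rows and the other 9 members. Those closest to KEAP1 were SQSTM1 (0.99) and GPX1 (0.98). With 6 libraries, among which same-numbered ones deviate together, these values are a description. Canonical transcripts have 42.1% GC for NFE2L2, 42.6% for ABCC4 and 42.2% for GSK3B. Those of KEAP1, SQSTM1 and GPX1 have 60.2%, 57.1% and 62.4%. Deviations of the libraries followed GC content, and its part in these correlations was not tested.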

How the data were processed

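HCT116 mRNA was compared between 3 OXA and 3 NT libraries, which the labels describe as stranded and made from polyadenylated RNA. The authors mapped reads to GRCh38 with STAR 2.7.5b, and the submitters' processing notes also name Trimmomatic 0.32, RSEM 1.3.3 and DESeq2. The annotation and strand setting used for counting are not given in the sources used here. The authors deposited a raw count per gene and library, used as deposited, and a normalized signal, the count times a factor that differed between genes (0.565 to 1.99 from percentile 1 to 99 in NT library 1), used only for an alternative.

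Genes were filtered with filterByExpr (minimum count 10, minimum total count 15), normalized by TMM and tested by the quasi-likelihood method of edgeR 4.0.16 in R 4.3.3, the Benjamini-Hochberg correction covering all 13727 genes that passed. Alternatives used DESeq2 1.42.0 and limma 3.58.1. SE is the log2 fold change divided by the square root of F. The threshold was an adjusted p under 0.05. The steps were run on simulated data with planted changes larger than those of the 10 genes and without GC trends. That run cannot show how well small changes are found in these libraries. Groups and library numbers came from the sample titles. Same-numbered libraries deviated together (correlations 0.48, 0.47 and 0.26, against -0.41 to 0.078 otherwise, limit 0.1), so the block is given where it changes a call. Neither labels nor paper say what a number stands for. Positions, lengths and GC content came from GENCODE 44 on GRCh38, and promoters from RefSeq (GRCh38.p14). The 10 genes, the 7 lists and the tests were chosen with earlier results of these data known. In each list, genes past the threshold and the 2 most abundant were named, CUL3 and SLC7A11 being named after their values were seen. For NFE2L2 and KEAP1 the 2 closest genes by correlation were named. Alternatives were other normalizations, no filter, DESeq2, limma-voom, the block and single libraries left out.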

Additional observations from a re-analysis of the deposited data

How the results depend on the processing

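Without a block, none of the 10 genes passed under any of the 6 other normalizations, filters and tools run or in any of the 6 fits that left out 1 library. The replicate block gave 2 of the 10 higher and 1 lower, and 1664 genes higher and 1493 lower among all genes, against 381 and 315 without it, and 20 and 9 in the lists, against 1 and 4. With the block and 1 pair left out, a setting chosen after seeing the data that leaves 1 residual degree of freedom, 5, 1 and 3 of the 10 were higher without pair 1, 2 and 3, and 1 lower each time. All genes then gave 2939, 956 and 1886 higher and 2800, 673 and 1193 lower, and the lists 25, 13 and 18 higher and 15, 7 and 7 lower. With GC and length trends also removed the values were 6 and 1 of the 10, 3176 and 3065 of all genes, and 28 and 26 of the lists. DESeq2 called 633 genes higher and 635 lower and 4 list genes higher, library totals alone called 511 lower, and limma-voom 1 list gene lower. With single libraries left out, 66 to 623 of all genes were higher and 19 to 571 lower, and 1 to 2 list genes higher and 0 to 5 lower. The lowest counts of all genes came without OXA library 1 and the highest without NT library 1.

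The sign of NFE2L2 turned with DESeq2 size factors and with DESeq2 (both -0.0011), with library totals (-0.035), with no filter (-0.024) and with the authors' normalized values (-0.015), and lay between -0.076 and 0.064 with single libraries left out and was -0.019 and -0.023 without pairs 2 and 3 under the block. With single libraries left out, the log2 fold change also turned for GCLM (-0.13 to 0.31), GSR (-0.0045 to 0.18), GSTP1 (-0.049 to 0.39) and TXNRD1 (-0.016 to 0.29). It kept its sign for HMOX1 (0.43 to 0.78), NQO1 (-0.72 to -0.23), KEAP1 (0.061 to 0.41), GCLC (-0.37 to -0.036) and SRXN1 (0.028 to 0.31). The cause of these shifts was not tested.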

Other observations

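Of the pathway genes examined, 8 were in the table but too low to test. GSTM3, TXNIP and UGT1A6 were listed at 0 in all 6 libraries, and CBR1 had 1 count in NT library 1 and 0 in the others. AKR1C1, a relative of AKR1B10, was counted 5, 13 and 11 times in the NT libraries and 3, 7 and 9 times under OXA. CBS, the first enzyme of the route from homocysteine to cysteine, was counted 0, 0 and 2 times in the NT libraries and 12, 8 and 9 times under OXA. Reads of CBS may be shared with a near-identical copy in the reference, so its level is uncertain. GGT1 stood in the table under 2 identifiers, of which the less abundant averaged 113 normalized counts without drug and 284 with it (log2 fold change 1.33, edgeR adjusted p = 0.0893, with the block 0.00719) and the other 2299 and 2766 (log2 fold change 0.27, edgeR adjusted p = 0.498). How the counting divided reads between them is uncertain. These genes were named after their values were seen.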
